A study of Mus musculus with 21 samples.

Results

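The genes described here are 10 genes known to respond to glucocorticoid hormone, Fkbp5, Tsc22d3, Zbtb16, Sgk1, Mt1, Mt2, Arrdc2, Slc10a6, Bcl2l1 and Hif3a, measured by RNA sequencing in the left ventricle of mice. They were picked by symbol from the 55450 genes of the count table, and all 10 were among the 17309 genes with enough counts to be tested. On GRCm38, which mm10 stands for, Hif3a lies at chr7:17031507-17062427, Zbtb16 at chr9:48654297-48836222, Fkbp5 at chr17:28399094-28517527 and Tsc22d3 at chrX:140539528-140600659, all on the minus strand. Arrdc2 lies at chr8:70835129-70839720, Slc10a6 at chr5:103605711-103629403 and Bcl2l1 at chr2:152780668-152831728, also on the minus strand, while Sgk1 at chr10:21882184-21999903, Mt2 at chr8:94172664-94173568 and Mt1 at chr8:94179082-94180327 lie on the plus strand. All 10 are protein-coding, and counts cover their exons. The choice of genes already describes Arrdc2, Slc10a6 and Bcl2l1 as lower with empagliflozin (EMPA) in mutant hearts. Differences between R403Q-EMPA and R403Q-CD are therefore given as a description with no test for all 10 genes. For these 3 genes only the diet comparison in wild-type mice is tested, because the other comparisons use R403Q-CD or R403Q-EMPA mice again.

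All 21 mice were males of strain 129S6/SvEv and fell into 4 groups by genotype and diet: WT-CD (n = 5), WT-EMPA (n = 5), R403Q-CD (n = 7) and R403Q-EMPA (n = 4). Wild-type (WT) mice were littermates of mice labelled Myh6+/R404Q (R403Q), which carry the mutation on a single copy of Myh6, the gene of the heart's alpha myosin heavy chain, and model hypertrophic cardiomyopathy. From 9 to 10 weeks of age they ate a control diet (CD) or that diet with 0.15 mg of EMPA per g, an inhibitor of the kidney's sodium-glucose cotransporter, or about 15 mg per kg of body weight. RNA was taken at 12 weeks of age by the series' design text, which is 2 to 3 weeks after the start, whereas the sample labels speak of 16 weeks of diet. CD mice came from 4 cages and EMPA mice from 3, and 0 cages held both diets, so cage and diet cannot be told apart. Both genotypes were present in 6 cages, each with 1 or 2 WT and 1 to 3 R403Q mice, while the remaining EMPA cage held 3 WT mice. Each mouse gave a single sample of whole ventricular tissue, with 23491535 to 43539684 counts in genes, and counts per gene do not show whether the myosin mutation itself is present.

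Glucocorticoids enter cells and bind the glucocorticoid receptor, which then moves to the nucleus and switches genes on or off by binding short DNA elements near them. Several of the genes it switches on restrain the hormone's own action or carry it out: Fkbp5 encodes a co-chaperone that lowers the receptor's affinity for hormone, Tsc22d3 the leucine zipper protein GILZ, and Sgk1 a kinase that acts on ion channels and transporters. In heart muscle the receptor and its close relative, the mineralocorticoid receptor, are both present, and many of these genes also answer to other signals, such as zinc for the metallothioneins Mt1 and Mt2, fasting, or the time of day.

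The stretches of DNA before the start sites of 3 of the genes are shown because they hold letters of the elements these signals act through. They are RefSeq sequences of build GRCm38.p6, 250 bases long and ending at the base before the start, each read 5′ to 3′ on the plus strand. The first is the stretch before a start of Sgk1 at chr10:21993640-21993889, with a full palindromic glucocorticoid response element in capitals. The others lie before Mt2 at chr8:94172368-94172617 and before Mt1 at chr8:94178839-94179088, with cores of the metal response element in capitals.
Sgk1: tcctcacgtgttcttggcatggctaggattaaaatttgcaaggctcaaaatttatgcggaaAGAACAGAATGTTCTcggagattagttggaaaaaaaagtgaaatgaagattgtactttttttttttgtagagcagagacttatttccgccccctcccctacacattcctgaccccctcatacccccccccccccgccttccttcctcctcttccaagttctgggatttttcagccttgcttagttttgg
Mt2: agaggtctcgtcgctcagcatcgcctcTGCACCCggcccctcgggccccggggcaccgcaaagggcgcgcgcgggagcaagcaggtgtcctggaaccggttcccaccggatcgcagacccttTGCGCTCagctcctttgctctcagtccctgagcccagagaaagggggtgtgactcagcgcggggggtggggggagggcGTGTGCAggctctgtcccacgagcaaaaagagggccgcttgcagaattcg
Mt1: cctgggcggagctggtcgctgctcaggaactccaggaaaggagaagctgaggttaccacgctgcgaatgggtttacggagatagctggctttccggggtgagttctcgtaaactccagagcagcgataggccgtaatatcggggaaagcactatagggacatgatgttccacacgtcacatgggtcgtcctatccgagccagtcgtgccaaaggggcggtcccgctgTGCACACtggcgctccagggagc
The Sgk1 element began 189 bases before the start. Windows of 300 bases, reaching 50 bases past the start, were listed for 9 of the 10 genes (18 windows), but for Zbtb16 none was at hand. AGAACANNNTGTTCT, searched on both strands, was found in 1 of these 18 windows, that of Sgk1, and in 3 of all 32851 windows (0.00913%). Its left arm AGAACA on its own, which overlaps it, was found in 5 of the 18 windows (those of Sgk1, Slc10a6 and Tsc22d3) and in 19.0% of all windows. The metal cores TGCACNC or TGCGCNC were found in 5 of the 18 (Bcl2l1, Hif3a, Mt1, Mt2 and Sgk1) and in 25.7% of all windows. A match is a description of the letters only, and elements farther from the start were not searched.

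Per kb of exon, the metallothioneins were the most abundant of the 10 genes in every group and Hif3a the least. In WT-CD hearts, mean levels in counts per 1000000 counts (CPM) per kb of exon were 279 for Mt1, 127 for Mt2, 69.9 for Zbtb16, 59.9 for Tsc22d3, 28.4 for Bcl2l1, 18.1 for Sgk1, 17.3 for Fkbp5, 6.59 for Slc10a6, 4.46 for Arrdc2 and 2.82 for Hif3a. All further levels are CPM of a gene, scaled by TMM, and differences are log2 fold changes of a fit of edgeR's quasi-likelihood test across all 21 mice, with p-values adjusted over all 17309 genes by Benjamini-Hochberg and a threshold of 0.05.

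**Figure D1:**
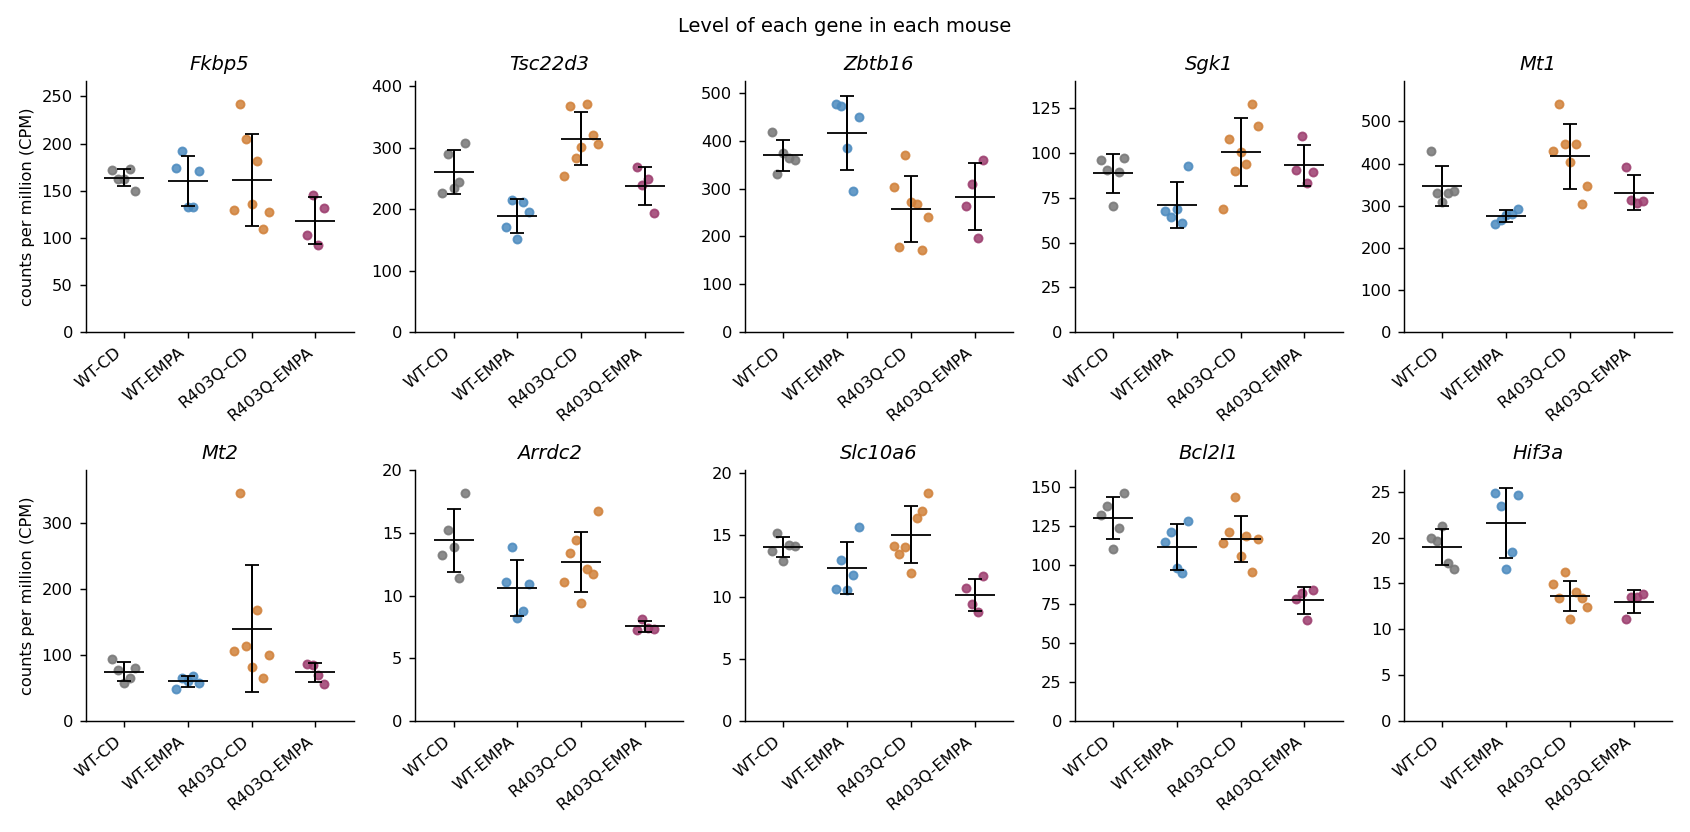
Level of each of the 10 genes (CPM, vertical axis from 0) in each mouse (points) of the 4 groups, with the mean and SD of the group in black. Arrdc2, Slc10a6 and Bcl2l1 are lowest in R403Q-EMPA, Hif3a is lower in both R403Q groups, and a single R403Q-CD mouse reaches 346 CPM of Mt2.

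R403Q-CD replicate 2 stood apart from the other 20 mice. Its summed markers of ventricular cardiomyocytes were 48395 CPM against 62531 to 87551 in the other 20, its Myh6 was 17530 against 28904 to 54667 CPM, and its Acta1, the alpha-actin of skeletal muscle, was 3645 against 175 to 1098 CPM. Summed markers of atrial muscle were 608 CPM in it against 2.12 to 260.3 CPM in the others. The mouse also had the highest Fkbp5, Mt1 and Mt2 levels of all 21, and many of the values that it moves are given with and without it. Every one of the 5 ventricular cardiomyocyte markers had counts in each group.

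On the control diet, R403Q hearts had less Hif3a than WT hearts, and no other of the 7 testable genes passed edgeR's threshold. Hif3a encodes an alpha subunit of the hypoxia-inducible factors, short forms of which hold the other family members back. Its level in the WT-CD mice was 16.6, 17.3, 19.6, 19.9 and 21.3 CPM, and in the R403Q-CD mice it ran from 11.1 to 16.2 CPM with a median of 13.5 CPM. Every R403Q-CD mouse was thus below every WT-CD mouse. The means were 18.9 ± 1.96 CPM (SD, n = 5) and 13.7 ± 1.64 CPM (SD, n = 7), a log2 difference of -0.47 (SE 0.106, adjusted p = 0.0302 by edgeR). By edgeR 1 of the 7 genes passed, against 1.44% of all genes tested. DESeq2's Wald test called 2 of the 7, Hif3a and Zbtb16, against 5.9% of all genes. An unadjusted p under 0.05 was reached by 5 of the 7 against 20.9% of all genes, and groups did not overlap for 1 of the 7 against 2.12% of all genes. In whole tissue, fewer cells of a type and less RNA per cell cannot be told apart. The call was lost at the adjusted p of 0.0519 with scaling by library size alone, at 0.0758 with only these 2 groups in the fit, and without any single one of WT-CD replicates 1, 2, 3 and 4 or R403Q-CD replicate 5, where the adjusted p reached 0.0971.

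Zbtb16, which encodes the zinc finger repressor PLZF, had the most negative log2 fold change in R403Q-CD. WT-CD mice had 329, 360.3, 364, 375 and 418 CPM, and R403Q-CD mice ran from 172 to 369 CPM with a median of 268 CPM. The groups overlapped through a single R403Q-CD mouse at 369 CPM. The log2 fold change of -0.52 (SE 0.169) did not pass (adjusted p = 0.0977 by edgeR), while DESeq2's Wald test put it at an adjusted p of 0.0456 and edgeR without R403Q-CD replicate 3, the mouse at 369 CPM, at 0.0313. In the other 11 fits that leave out a mouse the adjusted p was 0.0802 to 0.220, and it did not pass with cage as a fixed block, at 0.312 where R403Q-CD replicate 2 was also left out. Without that mouse and without the block, the log2 fold change of Zbtb16 was -0.45 (SE 0.162, adjusted p = 0.161 by edgeR).

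The metallothioneins and Tsc22d3 had higher means in R403Q-CD than in WT-CD, none of them past the threshold. Metallothioneins are small proteins that bind zinc and other metals. Mt2 was 57.8, 64.3, 77.2, 80.0 and 93.3 CPM in WT-CD and ran from 64.8 to 346 CPM in R403Q-CD with a median of 105 CPM. Its log2 fold change was 0.91 (SE 0.294, adjusted p = 0.0972 by edgeR). Without R403Q-CD replicate 2 it was 0.49 (SE 0.180, adjusted p = 0.168), so that mouse moved the value by more than the standard error. Mt1, a related copy that starts 5513 bases past the end of Mt2, had a mean of 417 ± 76.6 CPM (SD, n = 7) in R403Q-CD and 347 ± 47.6 CPM (SD, n = 5) in WT-CD, a log2 difference of 0.26 (SE 0.112, adjusted p = 0.182 by edgeR). Without R403Q-CD replicate 2 it was 0.19 (SE 0.100, adjusted p = 0.360). For Tsc22d3 the means were 315 ± 42.8 CPM (SD, n = 7) and 260.1 ± 36.1 CPM (SD, n = 5), a log2 difference of 0.27 (SE 0.112, adjusted p = 0.168 by edgeR). Its value without R403Q-CD replicate 2 was 0.23 (SE 0.109, adjusted p = 0.292 by edgeR).

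Fkbp5 and Sgk1 gave no called difference between R403Q-CD and WT-CD. Fkbp5 was 150 to 173 CPM in WT-CD and 110 to 242 CPM in R403Q-CD, so that the mutant mice scattered on both sides of the WT mice, with a log2 difference of -0.02 (SE 0.165, adjusted p = 0.962 by edgeR) that was -0.15 (SE 0.145, adjusted p = 0.637) without R403Q-CD replicate 2. Sgk1 was 70.3 to 97.2 CPM in WT-CD and 68.6 to 127 CPM in R403Q-CD, a log2 difference of 0.18 (SE 0.128, adjusted p = 0.431 by edgeR). Of the 3 genes given as a description, Arrdc2 differed by -0.18, Bcl2l1 by -0.16 and Slc10a6 by 0.10 on the log2 scale. On leaving out each mouse the values ran from -0.26 to -0.08 for Arrdc2, the latter without WT-CD replicate 5, from -0.22 to -0.11 for Bcl2l1, from 0.0446 to 0.15 for Slc10a6, the former without R403Q-CD replicate 7, and from 0.11 to 0.25 for Sgk1, the former without WT-CD replicate 3. Over the 10 genes the median log2 fold change was 0.04, against 0.01 over all genes tested, with 5 values above 0 and 5 below.

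Markers of cell types moved with genotype as well. The 5 ventricular cardiomyocyte markers summed to 76531 to 85189 CPM in WT-CD and 48395 to 77574 CPM in R403Q-CD, and to 62531 or more without R403Q-CD replicate 2. The largest part of the sum was Myh6, the gene that carries the mutation, with means of 43239 CPM in WT-CD and 32934 CPM in R403Q-CD. On the log2 scale 2 of the 5 markers were above 0 and 3 below. None of the 5 passed by edgeR or DESeq2's Wald test, and 2, both lower, had an unadjusted p under 0.05. The summed level of the 5 leukocyte markers was 126 to 177 CPM in WT-CD and 184 to 398 CPM in R403Q-CD, and 2 of the 5 were past the threshold, Ptprc at a log2 difference of 0.59 (SE 0.117, adjusted p = 0.0187 by edgeR) and Adgre1, a macrophage receptor, at 0.67 (SE 0.158, adjusted p = 0.0351 by edgeR). Most of the sum was Lyz2, at 133 ± 18.6 CPM in WT-CD (SD, n = 5) and 211 ± 65.7 CPM in R403Q-CD (SD, n = 7), while Cd3e, a marker of T cells, was under 0.6 CPM in each mouse, with a log2 difference of -0.39. The 4 fibroblast markers summed to 882 to 1412 CPM in WT-CD and 1199 to 2498 CPM in R403Q-CD. Both highest sums were those of R403Q-CD replicate 2, and the other 6 R403Q-CD mice reached 247 CPM of leukocyte and 1918 CPM of fibroblast markers. Without that mouse 2 of the 5 leukocyte markers still passed and the fibroblast markers with an unadjusted p under 0.05 were 1 of the 4. With all mice, none of the 4 passed by edgeR, 2 had an unadjusted p under 0.05, and DESeq2's Wald test called 1. With only these 2 groups in the fit, Ptprc had an adjusted p of 0.100 and Adgre1 of 0.128 by edgeR, and Adgre1 had 0.0636 in the fit of 3 groups without WT-EMPA. Ptprc also lost its call without WT-CD replicate 1, 2 or 3, and Adgre1 without WT-CD replicate 1, 2, 3 or 4 or R403Q-CD replicate 5, where the adjusted p reached 0.0695 and 0.112. With cage as a fixed block and without R403Q-CD replicate 2 their adjusted p was 0.196 and 0.214 by edgeR. Each marker of these lists had counts in every group. Their part in the results for the 10 genes was not tested.

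The genotype difference of Hif3a was seen again in mice on EMPA, none of which entered the comparison on the control diet. WT-EMPA mice had 16.6, 18.4, 23.4, 24.6 and 24.9 CPM, and R403Q-EMPA mice had 11.1, 13.5, 13.6 and 13.8 CPM. Again every mutant mouse was below every WT mouse, with a log2 difference of -0.73 (SE 0.124, adjusted p = 0.0183 by edgeR). By edgeR this was 1 of the 7 testable genes against 0.0578% of all genes. DESeq2's Wald test also called 1 of the 7, against 1.94% of all genes. An unadjusted p under 0.05 was seen for 6 of the 7, against 14.7% of all genes. The 2 genes whose groups did not overlap, against 6.77% of all genes, were Hif3a and, in the other direction, Mt1. The Hif3a call was lost with cage as a fixed block (log2 fold change of -0.71, adjusted p = 0.160). It was also lost without WT-EMPA replicate 2 or 5 and without any single R403Q-EMPA mouse, where the adjusted p reached 0.136. Markers of cell types moved with genotype on EMPA too. Those of ventricular cardiomyocytes summed to 73385 to 87551 CPM in WT-EMPA and 64819 to 74108 CPM in R403Q-EMPA, with 1 of the 5, lower, at an unadjusted p under 0.05. The largest part was again Myh6, with means of 45221 CPM in WT-EMPA and 34797 CPM in R403Q-EMPA. On the log2 scale 2 of these 5 markers were above 0 and 3 below. The fibroblast markers summed to 857 to 1399 CPM in WT-EMPA and 1420 to 1594 CPM in R403Q-EMPA, without overlap, and the leukocyte markers to 101 to 218.1 CPM and 217.9 to 276 CPM, with 3 of the 5 leukocyte markers above 0 and 2 below on the log2 scale. None of these markers passed by edgeR or DESeq2's Wald test, and 1 of the 4 fibroblast and 2 of the 5 leukocyte markers had an unadjusted p under 0.05. Their part in the Hif3a difference was not tested.

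Among the other genes on EMPA, Zbtb16 was again lower on average in the mutant mice and Tsc22d3, Sgk1 and Mt1 higher, without passing the threshold. The log2 fold change was -0.56 for Zbtb16 (SE 0.198, adjusted p = 0.208 by edgeR). It was 0.33 for Tsc22d3 (SE 0.127, adjusted p = 0.234), 0.39 for Sgk1 (SE 0.145, adjusted p = 0.225) and 0.27 for Mt1 (SE 0.127, adjusted p = 0.330 by edgeR). Mt2 gave 0.31 (SE 0.330, adjusted p = 0.687) and Fkbp5 -0.44 (SE 0.191, adjusted p = 0.283 by edgeR). Bcl2l1, Arrdc2 and Slc10a6 differed by -0.53, -0.49 and -0.28, values given as a description. On leaving out each mouse they ran from -0.58 to -0.46, from -0.57 to -0.37 and from -0.36 to -0.18, in the same order.

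Mice of both genotypes were also compared inside a cage, so that diet and cage were shared. Hif3a was lower in the R403Q mice than in their WT cage mates in 6 of 6 cages, by 0.31 to 0.84 on the log2 scale. Of all genes tested, 10.1% were lower in 6 of 6 cages and 9.7% were higher. Zbtb16 was also lower in 6 of 6 cages, whereas Mt2 and Tsc22d3 were higher in 6 of 6. Bcl2l1 was lower in 6 of 6 as well, which is given as a description because the 2 EMPA cages hold the R403Q-EMPA values that the choice of genes used. The within-cage difference of Tsc22d3 lay between 0.11 and 0.50, and that of Mt2 between 0.09 and 2.37, the top value being the cage of R403Q-CD replicate 2. Fkbp5, Sgk1, Mt1, Arrdc2 and Slc10a6 had differences of either sign. These within-cage values reuse the mice of the comparisons above. With cage as a fixed block, Mt2 passed on the control diet (log2 fold change of 0.96, adjusted p = 0.0482 by edgeR). Without R403Q-CD replicate 2 the same fit gave 0.43 (SE 0.218, adjusted p = 0.416), so the call rests on that mouse. Hif3a in the fit with cage as a fixed block and without that mouse was -0.35 (SE 0.130, adjusted p = 0.278 by edgeR), and its call was lost as well.

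**Figure D2:**
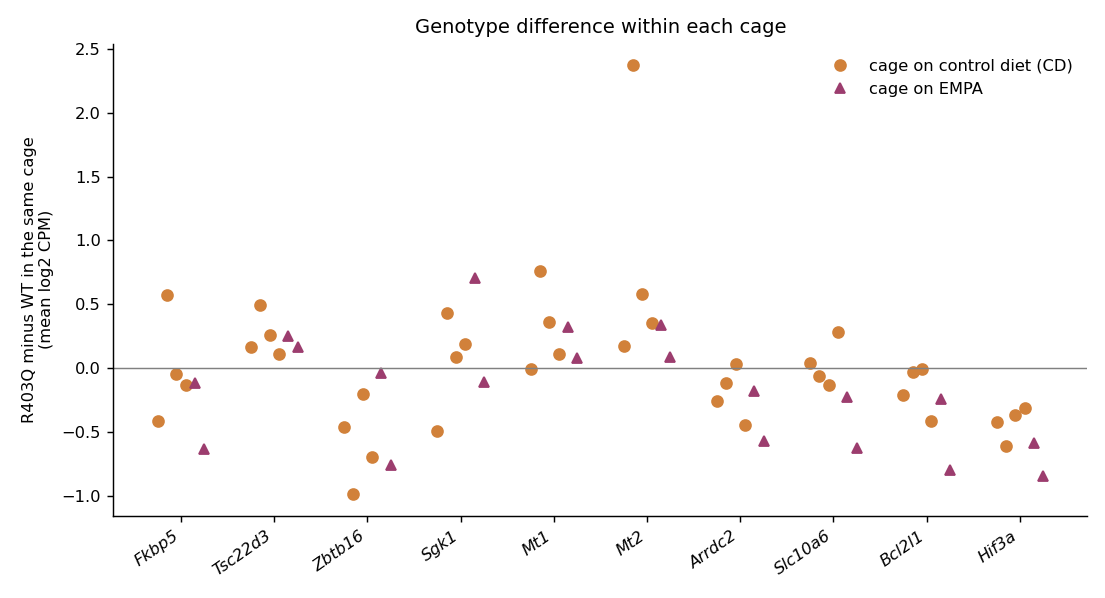
Difference between R403Q and WT mice of the same cage (mean log2 CPM, vertical axis) for each gene, with 4 cages on the control diet as circles and 2 on EMPA as triangles. Hif3a, Zbtb16 and, as a description, Bcl2l1 lie below 0 in 6 of 6 cages and Mt2 and Tsc22d3 above 0.

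In WT mice, EMPA hearts had lower mean levels of 8 of the 10 genes than control-diet hearts, and none of the 10 passed edgeR's threshold. Lower genes with an adjusted p under 0.05 were 0% of all genes tested by edgeR. At an unadjusted p under 0.05, 5 of the 10 were lower, namely Tsc22d3, Arrdc2, Mt1, Sgk1 and Bcl2l1, against 5.08% of all genes. DESeq2's Wald test called 1 of the 10 lower, Tsc22d3, against 0.186% of all genes. Groups did not overlap for 2 of the 10, Tsc22d3 and Mt1, both lower, against 1.59% of all genes. The median log2 fold change of the 10 genes was -0.27, and that of all genes was -0.0036. The comparison shares its WT-CD mice with the genotype comparison on the control diet.

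Tsc22d3 had the largest fitted difference with EMPA in WT mice. Its level was 226, 234, 244, 290.2 and 307 CPM in WT-CD and 151, 171, 195, 212 and 215 CPM in WT-EMPA. No mouse on EMPA reached the lowest mouse on the control diet. The log2 fold change was -0.46 (SE 0.120, adjusted p = 0.173 by edgeR and 0.0391 by DESeq2's Wald test). GILZ, its product, is among the best-known effectors of the glucocorticoid receptor.

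Mt1 was separated in the same way, with 309, 331, 331, 335 and 430.4 CPM in WT-CD and 256, 266, 279, 281 and 293 CPM in WT-EMPA. Its log2 fold change was -0.34 (SE 0.121, adjusted p = 0.300 by edgeR). The difference for Mt2 was -0.32 with a wider error (SE 0.312, adjusted p = 0.748 by edgeR). Sgk1 gave -0.32 (SE 0.138, adjusted p = 0.396 by edgeR), with a single WT-EMPA mouse at 92.9 CPM and the other 4 between 60.9 and 68.9 CPM.

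The 3 genes named in the choice were tested here, since no WT mouse entered the R403Q comparison that the choice describes. The genes were nevertheless chosen with earlier results of these data known. Arrdc2, an arrestin-domain protein, was 11.4, 13.3, 13.9, 15.2 and 18.2 CPM in WT-CD and 8.23, 8.74, 10.9, 11.1 and 13.9 CPM in WT-EMPA. The groups overlapped, and the log2 fold change was -0.44 (SE 0.149, adjusted p = 0.287 by edgeR). Bcl2l1, whose product Bcl-xL protects cells from apoptosis, was 111, 124, 132, 138 and 147 CPM in WT-CD and 94.7, 98.4, 115, 122 and 129 CPM in WT-EMPA. Its log2 fold change was -0.22 (SE 0.105, adjusted p = 0.444 by edgeR). Slc10a6, a transporter of sulfated steroids, was 12.9, 13.7, 14.1, 14.1 and 15.1 CPM in WT-CD and 10.6, 10.7, 11.7, 13.0 and 15.6 CPM in WT-EMPA. Its log2 fold change was -0.19 (SE 0.118, adjusted p = 0.586 by edgeR), with WT-EMPA replicate 5 above every WT-CD mouse. All 3 fitted values were thus below 0, and none passed.

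Fkbp5 scarcely differed with EMPA in WT mice, at -0.03 (SE 0.178, adjusted p = 0.974 by edgeR), while Zbtb16 and Hif3a had positive values of 0.17 (SE 0.184, adjusted p = 0.778) and 0.19 (SE 0.114, adjusted p = 0.560 by edgeR). The WT-EMPA mice were 132 to 192 CPM for Fkbp5. For Zbtb16 they were 294 to 477 CPM, a range that contained every WT-CD mouse.

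**Figure D3:**
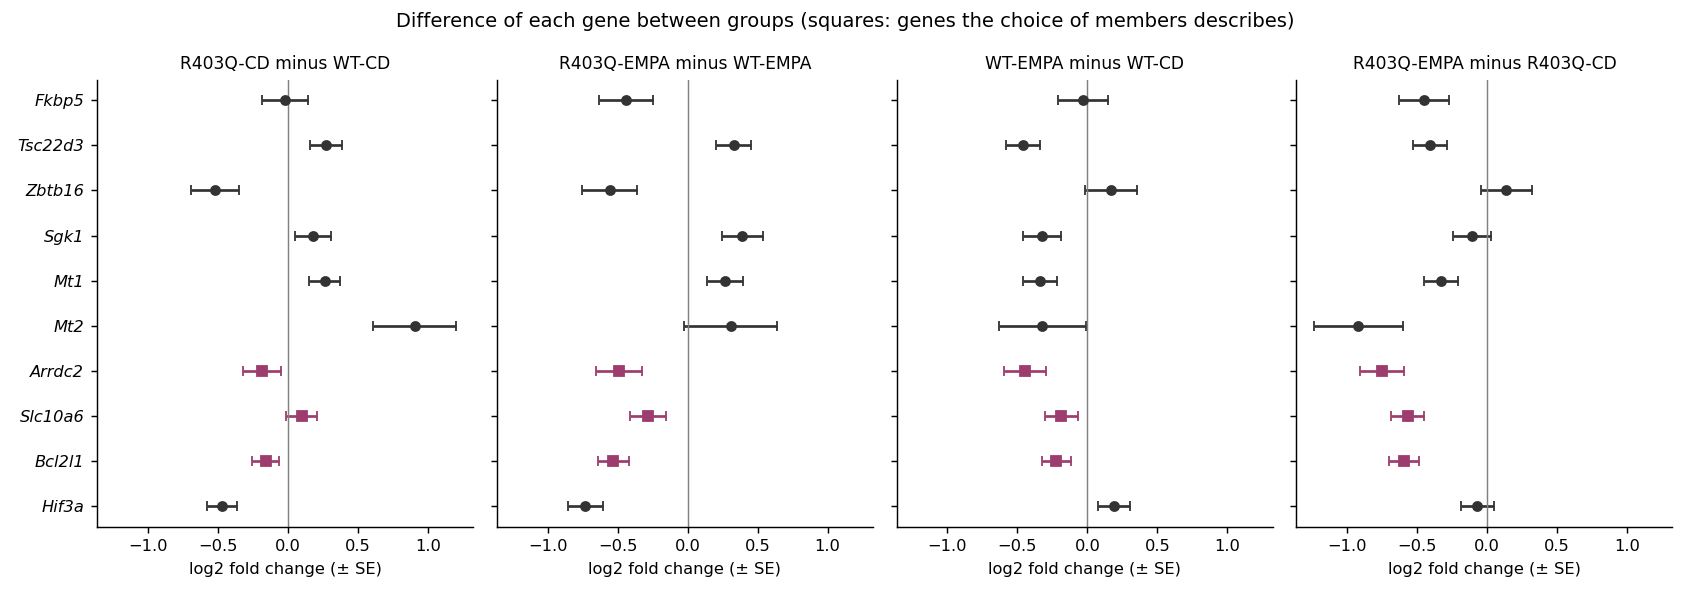
Log2 fold change of each gene with its standard error (horizontal axis) in 4 comparisons, with squares for Arrdc2, Slc10a6 and Bcl2l1. The R403Q-EMPA minus R403Q-CD panel is a description of the contrast that the choice of genes used. Values for Hif3a lie below 0 in both genotype panels, at -0.47 and -0.73.

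In R403Q mice, the values with EMPA are those that the choice of genes used. Arrdc2 was 7.29, 7.34, 7.38 and 8.17 CPM in R403Q-EMPA and ran from 9.41 to 16.8 CPM in R403Q-CD with a median of 12.1 CPM. This is a log2 difference of -0.75, a change of -40.6%. Bcl2l1 was 65.0, 78.5, 81.9 and 84.0 CPM in R403Q-EMPA and 95.9 to 144 CPM in R403Q-CD (median 117 CPM), a log2 difference of -0.59. Slc10a6 was 8.80, 9.38, 10.7 and 11.6 CPM in R403Q-EMPA and 11.9 to 18.4 CPM in R403Q-CD (median 14.1 CPM), a log2 difference of -0.57. The groups did not overlap for any of these 3, against 0.664% of all genes with the lower level on EMPA, a count that the choice of genes fixed. The narrowest gap was that of Slc10a6, between 11.6 and 11.9 CPM.

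The other genes in R403Q mice ranged from a log2 difference of -0.92 for Mt2 to 0.13 for Zbtb16. Without R403Q-CD replicate 2 the Mt2 value was -0.52 and the Fkbp5 value -0.33 in place of -0.45. The same fit gave -0.26 for Mt1 in place of -0.33 and 0.06 for Zbtb16 in place of 0.13. Tsc22d3 differed by -0.41, with 194, 239, 248 and 268 CPM in R403Q-EMPA and 254 to 371 CPM in R403Q-CD (median 305 CPM). Its groups overlapped only because the highest R403Q-EMPA mouse passed the lowest R403Q-CD mouse. Mt1 differed by -0.33, Sgk1 by -0.11 and Hif3a by -0.07. On leaving out each mouse, Sgk1 ran from -0.20, without R403Q-EMPA replicate 2, to -0.0436, without R403Q-CD replicate 6, and Hif3a from -0.11 to -0.0011, without R403Q-CD replicate 4 and R403Q-EMPA replicate 1. Of the 10 genes, lower calls came to 0 by edgeR (0% of all genes) and to 3 by DESeq2's Wald test (0.477% of all genes). These 3 were Arrdc2, Slc10a6 and Bcl2l1, so the count repeats the choice of genes and nothing is read from it. The median over the 10 genes was -0.43, and over all genes -0.0036. That median of -0.43 includes the 3 values that the choice of genes used, so nothing is read from it either.

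The effect of EMPA was then compared between genotypes with the interaction term of the fit. None of the 7 testable genes passed by edgeR, against 0% of all genes, and none by DESeq2's Wald test, where the share of all genes called was likewise 0%. An unadjusted p under 0.05 was reached by 0 of the 7, against 3.28% of all genes. Mt2 gave -0.60 (SE 0.440, adjusted p = 0.999 by edgeR) and Fkbp5 -0.42 (SE 0.252, adjusted p = 0.999). Both rested in part on R403Q-CD replicate 2, without which they were -0.19 (SE 0.267) for Mt2 and -0.30 (SE 0.218) for Fkbp5. For Tsc22d3 it was 0.06 (SE 0.169) and for Mt1 0.0041 (SE 0.169), with normal 95% intervals of -0.28 to 0.39 and -0.33 to 0.34 that leave room for sizeable terms of either sign. Slc10a6, Bcl2l1 and Arrdc2 gave terms of -0.38, -0.37 and -0.31, as a description. On leaving out each mouse these terms ran from -0.45 to -0.28, from -0.43 to -0.30 and from -0.41 to -0.19, in the same order.

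Other tissue signals differed with diet beside these genes. Summed markers of atrial muscle (Myl4, Myl7 and Sln) were 5.52 to 260.3 CPM in WT-CD and 2.12 to 78.1 CPM in WT-EMPA, and 3.22 to 608 CPM in R403Q-CD and 2.70 to 34.8 CPM in R403Q-EMPA. The groups overlapped, with median log2 differences of -1.43 in WT and -3.40 in R403Q mice. None of the 3 passed by edgeR or DESeq2's Wald test, and 0 in WT and 3 in R403Q mice had an unadjusted p under 0.05. Without R403Q-CD replicate 2 the median in R403Q mice was -2.07, and 0 of the 3 had an unadjusted p under 0.05. The summed level of 5 red blood cell markers was 706 to 1280 CPM in WT-CD and 1235 to 2003 CPM in WT-EMPA, and 877 to 1717 CPM in R403Q-CD and 1214 to 2660 CPM in R403Q-EMPA. None of the 5 passed by edgeR in either comparison. At an unadjusted p under 0.05 there were 4 of the 5 in WT and 5 of the 5 in R403Q mice, and DESeq2's Wald test called 0 and 2. Dbp, a clock-controlled transcription factor whose RNA swings strongly over the day, was 65.1 to 130.3 CPM in WT-CD and 23.3 to 76.0 CPM in WT-EMPA. Its log2 fold change was -1.02 (SE 0.339, adjusted p = 0.286 by edgeR), and in R403Q mice the difference was -1.03 (SE 0.347, adjusted p = 0.228). Per1, a clock gene that glucocorticoids also switch on, gave -0.36 (SE 0.121, adjusted p = 0.287 by edgeR) in WT and -0.32 (SE 0.121, adjusted p = 0.261) in R403Q mice. Of the 14 clock genes listed, 0 passed in either diet comparison by edgeR, and 9 of the 14 had an unadjusted p under 0.05 in each, 2 higher and 7 lower in both WT and R403Q mice, against 11% and 13.4% of all genes, while DESeq2's Wald test called 1 in WT and 2 in R403Q mice. The sources used here do not give the hour at which tissue was taken. The part of atrial muscle, of red cells and of the hour in the results for the 10 genes was not tested.

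The receptors and the enzyme that supply these genes with their signal showed no called difference. Nr3c1, the glucocorticoid receptor, had means of 111 ± 2.20 CPM in WT-CD (SD, n = 5), 118 ± 4.84 in WT-EMPA (n = 5), 109.6 ± 7.88 in R403Q-CD (n = 7) and 117 ± 5.07 in R403Q-EMPA (n = 4). Its log2 fold change was -0.01 (SE 0.051) by genotype on the control diet, and 0.09 with EMPA in WT mice (SE 0.055, adjusted p = 0.550 by edgeR). Nr3c2, the mineralocorticoid receptor, gave -0.13 (SE 0.159, adjusted p = 0.661 by edgeR) by genotype on the control diet. Hsd11b1, the enzyme that turns inactive glucocorticoid into active hormone inside cells, gave -0.03 (SE 0.226, adjusted p = 0.955 by edgeR). Its lowest level, 11.1 CPM, was that of R403Q-CD replicate 2, against 25.2 to 50.3 CPM in the other 20 mice, and without that mouse the value was 0.11 (SE 0.154, adjusted p = 0.758 by edgeR). With EMPA it gave 0.22 in WT mice (SE 0.243, adjusted p = 0.778 by edgeR) and 0.42 in R403Q mice (SE 0.238, adjusted p = 0.453), the latter 0.26 (SE 0.162, adjusted p = 0.561) without R403Q-CD replicate 2. Of the 11 genes of receptor machinery listed, 10 could be tested, and 0 of them passed in any of the 5 comparisons by edgeR or DESeq2's Wald test. An unadjusted p under 0.05 was seen by genotype for 3 on the control diet and 0 on EMPA, against 20.9% and 14.7% of all genes. With EMPA there was 1 in WT and 1 in R403Q mice, against 11% and 13.4%, and the interaction had 1, against 3.28%.

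Among 26 other genes listed as glucocorticoid-responsive, 1 passed by edgeR on the control diet by genotype, against 1.44% of all genes, and it was lower in R403Q-CD. This was Klf15, a transcription factor that controls amino acid and lipid metabolism in the heart. It was 129 to 145 CPM in WT-CD and 85.9 to 114 CPM in R403Q-CD, so that the groups did not overlap, with a log2 difference of -0.39 (SE 0.093, adjusted p = 0.0372 by edgeR). DESeq2's Wald test called 1 of the 26 higher and 2 lower in the same comparison, against 5.9% of all genes. The edgeR call was lost with scaling by library size alone (adjusted p = 0.0534 by edgeR). It was also lost without any single WT-CD mouse, R403Q-CD replicate 4 or R403Q-CD replicate 5, with an adjusted p of 0.0504 or more, and with cage as a fixed block and without R403Q-CD replicate 2 (adjusted p = 0.202). The median log2 fold change of the 26 genes was -0.09 for genotype on the control diet, -0.10 for EMPA in WT mice and -0.02 for EMPA in R403Q mice, where all genes tested had 0.01, -0.0036 and -0.0036. In both diet comparisons 0 of the 26 passed by edgeR. At an unadjusted p under 0.05, 4 of them were higher and 5 lower in WT mice, against 11% of all genes in either direction. In R403Q mice 4 were higher and 6 lower, against 13.4% of all genes. By sign alone, 9 of the 26 were above 0 and 17 below in WT mice, and 12 were above and 14 below in R403Q mice. DESeq2's Wald test called 1, higher, in WT and 0 in R403Q mice.

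Genes of the metal response gave no called difference. Mtf1, the zinc sensor that switches on Mt1 and Mt2, had means of 21.1 ± 1.13 CPM in WT-CD (SD, n = 5) and 25.0 ± 2.15 CPM in WT-EMPA (SD, n = 5), a log2 difference of 0.24 (SE 0.075, adjusted p = 0.264 by edgeR). In the same mice Mt1 and Mt2 had values below 0. Slc30a1, a zinc exporter and another target of Mtf1, gave -0.15 (SE 0.069, adjusted p = 0.211 by edgeR) by genotype on the control diet. There Mt2 gave 0.91, or 0.49 without R403Q-CD replicate 2. In that comparison 3 of the 5 metal response genes were above 0 and 2 below, from -0.15 to 0.50 with a median of 0.15. None of the 5 metal response genes passed in any comparison by edgeR or DESeq2's Wald test. By genotype, 1 on the control diet and 3 on EMPA had an unadjusted p under 0.05, against 20.9% and 14.7% of all genes. With EMPA there was 1 in WT and 1 in R403Q mice, against 11% and 13.4%, and the interaction had 0, against 3.28%.

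Within groups, Mt2 was the most variable of the 10 genes. The SD of log2 CPM within groups was 0.514 for Mt2, larger than in 86.6% of all genes tested, 0.324 for Zbtb16 and 0.308 for Fkbp5. It was 0.175 for Bcl2l1, and the median of all genes tested was 0.203. The value for Mt2 rested on R403Q-CD replicate 2, without which it was 0.333, larger than in 73.8% of all genes, beside 0.307 for Zbtb16 and 0.266 for Fkbp5. Correlations between the genes were computed over the 21 mice after subtracting each group's mean, for 45 pairs, with p-values from 100000 permutations within groups and adjusted over the 45 pairs. Mt1 and Mt2 correlated at Pearson's r = 0.79 (permutation p = 5.9e-04, adjusted 0.0265) and Spearman's rho = 0.68 (permutation p = 0.00434, adjusted 0.0508). Without the 2 mice farthest from the median of Mt1 the r was 0.59. Of the 21 pairs among the 7 testable genes, the other 20 did not pass by Pearson's r. Pairs with Arrdc2, Slc10a6 or Bcl2l1 are given as a description with no test. Among them Fkbp5 and Bcl2l1 had r = 0.67 and rho = 0.74, and r was 0.68 without the 2 mice farthest from the median of Fkbp5. Of all 45 pairs, 33 had a positive r and 12 a negative r, with a median of 0.21. Mice of a cage may not be fully independent in these values.

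**Figure D4:**
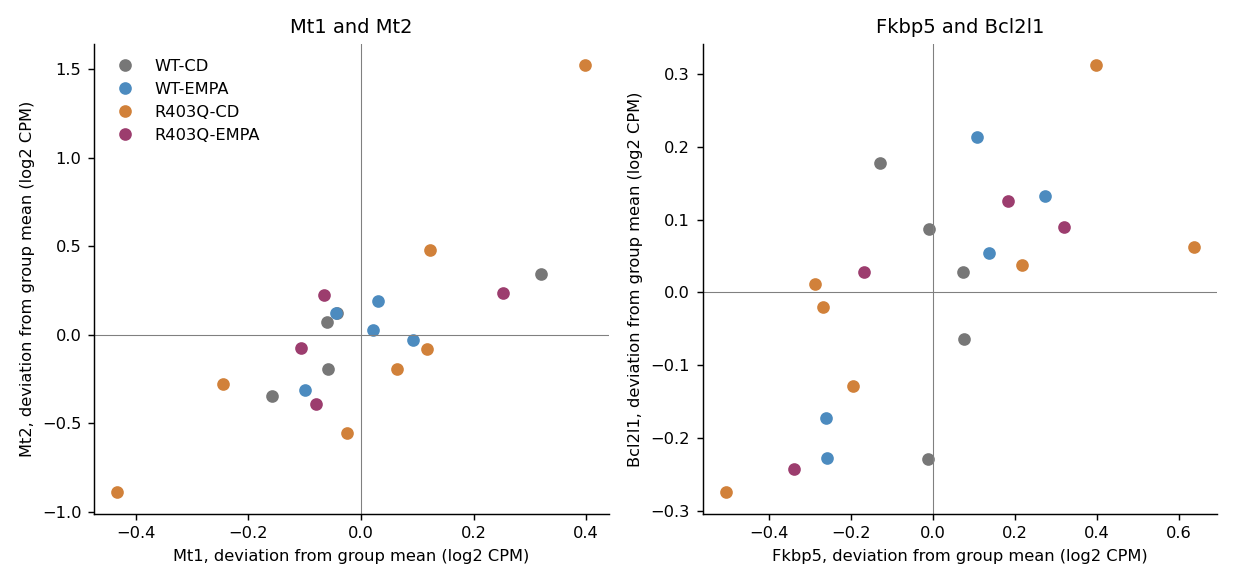
Deviation of each of 21 mice from the mean of its group (log2 CPM, both axes) for Mt1 against Mt2 (left) and Fkbp5 against Bcl2l1 (right), coloured by group. Pearson's r is 0.79 on the left, where a single R403Q-CD mouse lies at the upper right, and 0.67 on the right.

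The genes whose within-group pattern was most like the mean pattern of the 10 were Man2a1, a Golgi mannosidase, with r = 0.84, Fads1, a fatty acid desaturase, with r = 0.82, Tinagl1, a protein of the extracellular matrix, with r = 0.82, Nhsl2 with r = 0.80 and Rin3 with r = 0.80, over 21 mice. These are given as a description, chosen as the 5 highest of all genes tested. Without R403Q-CD replicate 2 the values lay between 0.77 and 0.82.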

How the data were processed

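RNA of the left ventricle was measured in 21 mice. Per the labels and the study's methods, polyadenylated RNA was sequenced as read pairs, aligned to mm10 with STAR 2.6.0c and checked with FastQC 0.11.7 and RSeQC. The deposited counts are those of featureCounts (Subread 1.6.2), run by the authors on uniquely aligned proper pairs in Ensembl genes on the same strand, without mitochondrial genes. The deposited log2 values are the authors' variance-stabilized counts (DESeq2 1.32.0) and were used only as an alternative. Groups came from the labels.

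The analysis used edgeR 4.0.16 in R 4.3.3: filterByExpr with a minimum count of 10, TMM, and the quasi-likelihood F test in a single fit of 4 groups, tested first on simulated data. CPM are counts per 1000000 of the TMM-scaled total, of which 3 counts are 0.0621 to 0.127 CPM, and log2 CPM used a prior count of 2. Alternatives were DESeq2 1.42.0, no filter, library size alone, limma 3.58.1 on the log2 values, fits of fewer groups, cage as a block, leaving out each mouse and, chosen after seeing the data, cage as a fixed block without R403Q-CD replicate 2. Cages are those the labels give.

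The 10 genes and the gene lists were chosen with earlier results of these data known. Named were the 10 genes in every comparison, genes of the lists with an adjusted p under 0.05, Nr3c1, Nr3c2, Hsd11b1, Mtf1, Slc30a1, Per1 and Dbp whatever their p, and the 5 genes most like the 10. GENCODE M21 named 55190 of 55450 IDs. Antisense or other genes overlapping 4 of the 10 had at most 0.293 CPM on average. Sequences came from RefSeq GRCm38.p6.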

Additional observations from a re-analysis of the deposited data

Results flagged for a closer look

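Of the 40 sets of values (10 genes in 4 groups), 7 held a mouse far from the others of its group, where chance alone flags about 1 in 20. Mt2 in R403Q-CD replicate 2 was 346 CPM, the highest of its group, against 167 CPM in the next mouse. Mt1 was highest in WT-CD replicate 1, at 430.4 CPM against 335 CPM in the next, and in R403Q-EMPA replicate 1, at 393 CPM against 315 CPM. Sgk1 was lowest in WT-CD replicate 3, at 70.3 CPM against 89.7 CPM in the nearest mouse, and highest in WT-EMPA replicate 5, at 92.9 CPM against 68.9 CPM. Arrdc2 in R403Q-EMPA replicate 2 was 8.17 CPM against 7.38 CPM, in a group whose other 3 mice lay between 7.29 and 7.38 CPM. Hif3a in R403Q-EMPA replicate 1 was 11.1 CPM, below the next mouse at 13.5 CPM, so the lowest mouse lies in the direction of the group's difference from WT-EMPA. The cause was not tested for any of them.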

How the results depend on the processing

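Of 50 log2 fold changes (10 genes in 5 comparisons), 43 kept their sign in every alternative that was run. Those that did not lay within 0.2 of 0. For Fkbp5 by genotype on the control diet the value was 0.0555 with library size alone and 0.0414 with cage as a fixed block, and -0.15 to 0.0544 on leaving out each mouse. For Fkbp5 with EMPA in WT mice it was -0.10 to 0.0309, and for Zbtb16 with EMPA in R403Q mice -0.0032 to 0.27, on leaving out each mouse. The interaction of Mt1 was -0.0022 with DESeq2, -0.0179 with library size alone, -0.13 with cage as a fixed block, -0.0119 with cage as a random block and -0.0874 to 0.0746 on leaving out each mouse. That of Tsc22d3 was -0.0408 with cage as a fixed block and -0.0149 to 0.14 on leaving out each mouse. That of Zbtb16 was 0.21 with cage as a fixed block, 0.0709 with that block and without R403Q-CD replicate 2, 0.0295 with cage as a random block and -0.17 to 0.10 on leaving out each mouse. With cage as a fixed block and without R403Q-CD replicate 2, an alternative chosen after seeing the data, Sgk1 (-0.0209) and Hsd11b1 (0.20) by genotype on the control diet changed sign. With library size alone, Nr3c1 (0.0565) and Hsd11b1 (0.0175) by genotype on the control diet and Nr3c2 (-0.0087) with EMPA in R403Q mice changed sign. On leaving out each mouse the values ran from -0.0338 to 0.0177 for Nr3c1, -0.18 to 0.11 for Hsd11b1 and -0.22 to 0.0216 for Dbp by genotype on the control diet, and from -0.0601 to 0.14 for Nr3c2 with EMPA in R403Q mice.

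The number of the 7 testable genes called by genotype on the control diet was 1, and 2 with DESeq2, 0 with library size alone, 0 with these 2 groups alone, 2 with cage as a fixed block, 0 with that block and without R403Q-CD replicate 2, and 0 to 2 on leaving out each mouse. On EMPA it was 1 of the 7, and 0 with cage as a fixed block and 0 to 1 on leaving out each mouse. With EMPA in WT mice it was 0 of the 10, and 1 with DESeq2. With EMPA in R403Q mice, as a description in which each call is of a gene the choice used, it was 0, and 3 with DESeq2, 1 without a filter, 1 with library size alone and 0 to 1 on leaving out each mouse. Over all genes, the 250 called by genotype on the control diet became 982 with DESeq2, 28 with the 2 groups alone, 98 with 3 groups, 475 with cage as a random block, 1128 with cage as a fixed block, 35 with that block and without R403Q-CD replicate 2, and 31 to 1045 on leaving out each mouse. Those with EMPA in R403Q mice, 2, became 151 with DESeq2, 3 without a filter, 5 with library size alone, 0 with the 2 or 3 groups alone and 0 to 12 on leaving out each mouse. Those with EMPA in WT mice, 5, became 110 with DESeq2, 0 with library size alone, 1 with cage as a random block and 0 to 7 on leaving out each mouse. Those by genotype on EMPA, 10, became 304 with DESeq2, 123 with the 2 groups alone, 0 with cage as a fixed block and 1 to 64 on leaving out each mouse. The cause was not tested. No paired analysis was possible because the replicate numbers only name the mice, as far as pairing by these numbers goes. Genotype was paired through the 6 cages that held both, as a block, whereas EMPA and CD mice never shared a cage. With 4 to 7 mice a group, p-values set a difference of group means against a spread between mice that the fit shares across the 4 groups. For the diet comparisons that spread does not account for cages, which never held both diets.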

Other observations

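Relatives of the 10 genes and the genes around them were looked at in the same fit. Among 12 tested relatives (of 14 listed), Arrdc4, an alpha-arrestin related to Arrdc2, passed by genotype on the control diet, against 1.44% of all genes. It was 10.7 to 15.0 CPM in WT-CD and 14.8 to 18.9 CPM in R403Q-CD, a log2 difference of 0.38 (SE 0.081, adjusted p = 0.0242 by edgeR), where Arrdc2 had a value below 0. The groups overlapped slightly, and the call was lost with only these 2 groups in the fit and without WT-CD replicate 1 or 4 or R403Q-CD replicate 5, where the adjusted p lay between 0.0504 and 0.100 by edgeR. On EMPA its log2 fold change was 0.34 (SE 0.092, adjusted p = 0.120 by edgeR and 0.0384 by DESeq2's Wald test). Tsc22d4, a relative of Tsc22d3 named after its values were seen, was lower in both comparisons by DESeq2's Wald test and not by edgeR. It was 150 to 172 CPM in WT-CD and 110.0 to 148 CPM in R403Q-CD, a log2 difference of -0.25 (SE 0.066, adjusted p = 0.0533 by edgeR and 0.0101 by DESeq2's Wald test), and 144 to 158 CPM in WT-EMPA and 117 to 129 CPM in R403Q-EMPA, a difference of -0.28 (SE 0.076, adjusted p = 0.122 by edgeR and 0.0213 by DESeq2's Wald test). In these comparisons DESeq2's Wald test called 5.9% and 1.94% of all genes. Of 11 genes of the BCL2 family, which decide between survival and death of a cell, 0 passed in any comparison by edgeR, with 3, 4, 0, 1 and 1 at an unadjusted p under 0.05 in the comparisons by genotype on the control diet, with EMPA in R403Q mice, by genotype on EMPA, with EMPA in WT mice and of the interaction. Over all genes, an unadjusted p under 0.05 was seen for 20.9%, 13.4%, 14.7%, 11% and 3.28% in the same order. DESeq2's Wald test called 1 of the 11 by genotype on the control diet and 1 with EMPA in R403Q mice.

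Of the 12 tested genes of the HIF pathway beside Hif3a, 11 had negative values by genotype on the control diet, with a median log2 fold change of -0.12, and 10 had positive values with EMPA in WT mice, with a median of 0.15. By edgeR 0 of the 12 passed in any comparison, with 3, 1, 6, 1 and 0 at an unadjusted p under 0.05 in the same order, beside the same shares of all genes, and DESeq2's Wald test called 1 by genotype on the control diet.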
